A study of Mus musculus with 4 samples.

Results

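Layer 6 corticothalamic excitatory nuclei are described here in the cerebral cortex of mice that lack the creatine transporter (CrT, encoded by Slc6a8) and of wild-type mice. The population was cut from 4 single-nucleus RNA-seq libraries by raw counts of unique molecular identifiers (UMIs, 1 per captured RNA molecule). A nucleus was a member with at least 1 UMI of Slc17a7, the vesicular glutamate transporter of cortical excitatory neurons, and none of Gad1 or Gad2, the GABA-synthesizing enzymes. It also needed at least 3 UMIs of Foxp2, at least 5 of Hs3st4 and at least 1 of Syt6 or Zfpm2. It could have at most 1 UMI of the subplate genes Nxph4, Ccn2 and Cplx3 together and none of Deptor. Of 35694 nuclei, 1207 were members (3.38%), which is 11% of the 10968 nuclei with Slc17a7 and no Gad1 or Gad2.

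The animals were male, on a C57Bl/6J background, untreated and 100 days old. The Control libraries came from 2 CrT+/y mice and the CrT-KO libraries from 2 CrT-/y littermates, with 1 animal in each library. The CrT-/y animals carry a deletion of Slc6a8 exons 5 to 7 in the whole body, so effects of the loss within these neurons and effects from the rest of the brain or body cannot be told apart. Nuclei were isolated and sorted by flow cytometry from the whole cortex of the right hemisphere, so cortical areas were not separated.

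Corticothalamic neurons are glutamatergic pyramidal cells of the deepest cortical layer whose axons leave the cortex for the thalamus. They send feedback to the thalamic nuclei that feed their own area and also contact the thalamic reticular nucleus and layer 4. Foxp2, Tbr1, Tle4 and Sox5 are transcription regulators of this class, and Bcl11b and Fezf2 are transcription factors of subcortically projecting neurons. Creatine enters neurons through CrT and, as phosphocreatine, buffers ATP where demand changes quickly, with creatine kinases (Ckb in the cytosol, Ckmt1 and Ckmt2 in mitochondria) moving the phosphate.

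The members numbered 274 in Control 1, 298 in Control 2, 346 in CrT-KO 1 and 289 in CrT-KO 2. Their summed UMIs were 2444428, 2745555, 3180007 and 2325088 in the same order. A member held a median of 8433, 8602, 8639 and 7550 UMIs, so nuclei of CrT-KO 2 were the shallowest and those of the other libraries lay close together. No cell barcode was shared between libraries among the members (12 to 19 shared barcodes in each pair of whole libraries). A doublet caller marked 68 members (5.63%), and Control 2 stood apart with 9.40% against 2.92% to 5.19% in the other libraries. Doublets were kept, as the rule sets none aside.

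The rule chose the members by their counts of the 4 markers, so those levels are a description. Median Foxp2 per member was 7.5 UMIs in Control 1, 9 in Control 2, 9 in CrT-KO 1 and 7 in CrT-KO 2. Between 21 and 32 members of a library stood exactly at the limit of 3. Hs3st4, a heparan sulfate sulfotransferase, lay far above its limit with medians of 36, 38, 41 and 30 UMIs. Zfpm2, a zinc finger cofactor of GATA factors, was detected in at least 98.9% of members of every library, whereas Syt6, a synaptotagmin, was detected in 58.0%, 70.1%, 63.0% and 59.9%. The condition on Syt6 or Zfpm2 was met by Zfpm2 alone in 41.97%, 29.9%, 37.0% and 40.1% of members, and by Syt6 alone in 1 to 3 nuclei a library. Just outside the rule, 1026 nuclei failed only the Foxp2 limit, 729 only Slc17a7, 410 only Deptor and 105 only the Gad condition. These near-members remained among the other excitatory nuclei used below for comparison, except those without Slc17a7 or with Gad1 or Gad2.

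The share of members among Slc17a7 nuclei was 11% in Control 1, 10.5% in Control 2, 11.8% in CrT-KO 1 and 10.7% in CrT-KO 2. The genotypes overlapped. The mean was 10.8% ± 0.332 in controls and 11.2% ± 0.806 in CrT-KO (SD, n = 2 each), a difference of 0.458 percentage points (exact permutation test over libraries, 2-sided, p = 0.67). With 2 libraries a group, the smallest p that 6 assignments allow is 0.33. After each nucleus was thinned to 5000 UMIs and the rule applied to the thinned counts, the Control shares were 10.1% and 10.5% and those of CrT-KO 11.3% and 10.8% (exact permutation test, p = 0.33, the smallest possible), with 12 to 27 shallower members a library left out.

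**Figure D1:**
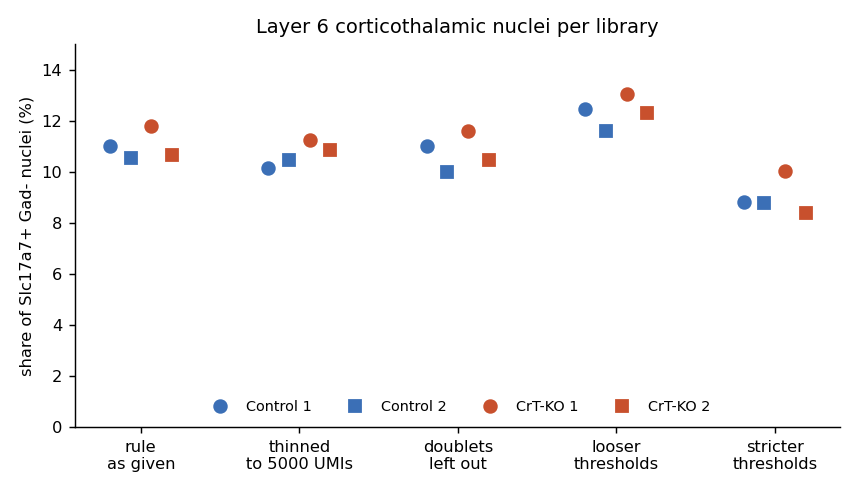
Share of layer 6 corticothalamic nuclei among nuclei with Slc17a7 and no Gad1 or Gad2 (%, y axis from 0), 1 point per library, under the rule as given and 4 alternatives (x axis); blue points are Control and orange points CrT-KO. Under the rule as given the 4 libraries lie between 10.5% and 11.8%, and the genotypes overlap.

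Corticothalamic markers outside the rule stood in the same nuclei. Levels are UMIs of a gene per 1000000 UMIs of all genes in the summed nuclei of a library (CPM), and they are compared only within a gene, since counts of pre-mRNA rise with gene length. Of 18 such markers, 17 were higher in members than in the other 9761 Slc17a7 nuclei in every library and 1, Ptprt, was lower in every library. Among all 9435 genes tested, 23.6% were higher and 21.9% lower in every library. The cells were chosen by correlated genes, so no test of members against other nuclei is given.

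Tle4, a Groucho-type corepressor, was at 548 CPM in Control 1, 488 in Control 2, 385 in CrT-KO 1 and 458 in CrT-KO 2, against 81.6 to 101 CPM in other excitatory nuclei. Thsd7b, which encodes a thrombospondin type 1 domain protein, was at 934, 922, 998 and 895 CPM against 162 to 197 CPM. Col5a1, a fibrillar collagen chain, was at 62.2, 39.7, 51.6 and 47.3 CPM against 4.59 to 7.08 CPM, the highest ratio of means among these 18 (8.40). Sla, an adaptor that dampens receptor signalling, was at 21.1 to 31.5 CPM against 3.55 to 3.86 CPM. None of these ranges overlapped between the populations.

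Some textbook markers of the class were sparse. Ntsr1, the neurotensin receptor whose Cre driver labels layer 6 corticothalamic cells, was at 10.6, 12.8, 12.3 and 11.2 CPM against 6.26 to 9.08 CPM in other excitatory nuclei. At 5000 UMIs a nucleus it was detected in 5.1% to 5.9% of members and in 2.8% to 4.1% of other excitatory nuclei. Rprm was at 0.818 to 3.28 CPM, Fezf2 at 7.36 to 11.6 CPM and Tbr1 at 17.5 to 22.4 CPM. By contrast Garnl3, a Rap GTPase-activating protein, was detected in 94.7% to 97.2% of thinned members and in 60.8% to 65.1% of thinned other nuclei.

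With the genes of the rule left out, the 12 genes with the highest ratio of mean CPM, at 50 CPM or more in every library, were Rell1, Arhgap25, Ptk7, Thsd7b, Tle4, Gng12, Ddah1, Cdh18, Rai14, Pitpnc1, Nfia and Slc16a10. The ratios ran from 7.09 for Rell1 to 4.07 for Slc16a10. Rell1 belongs to the RELT family of tumour necrosis factor receptors and was at 77.4 to 110 CPM in members against 13.1 to 14.2 CPM. Cdh18, a classical type II cadherin, was at 3299 to 3754 CPM against 758 to 855 CPM. Slc16a10 transports aromatic amino acids. Nuclei with at least 2 UMIs of Deptor, a gene used to mark layer 5 intratelencephalic cells, numbered 1213 and lay below the members in every library for all 12 genes. Their ranges overlapped those of the other excitatory nuclei for Ptk7, Tle4, Ddah1 and Pitpnc1, lay below them for Nfia and above them for the other 7. Arhgap25, a Rac GTPase-activating protein, was at 48.2 to 71.2 CPM in Deptor nuclei, 16.4 to 23.3 CPM in other excitatory nuclei and 96.8 to 128 CPM in members. Subplate-like nuclei, with 2 or more UMIs of Nxph4, Ccn2 and Cplx3, numbered only 31 in all and were not compared.

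**Figure D2:**
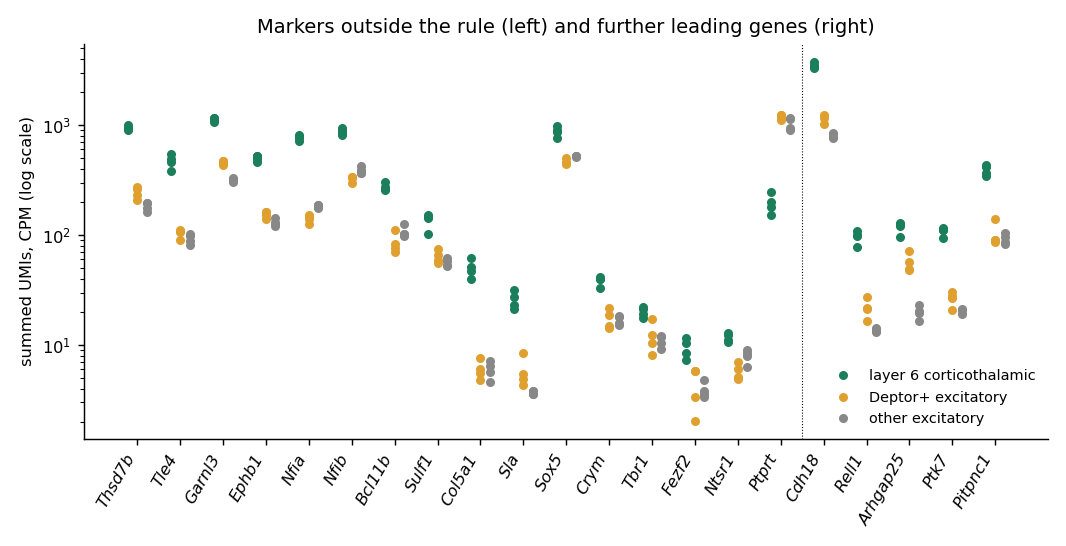
Summed level per library (CPM, log scale) of 16 corticothalamic markers outside the rule and of 5 further leading genes in layer 6 corticothalamic nuclei (green), Deptor nuclei (yellow) and other excitatory nuclei (grey), 1 point per library. Members sit above both other populations for every gene shown except Ptprt, which was at 153 to 248 CPM in members and 895 to 1156 CPM in other excitatory nuclei. The markers Cdh9 and Rprm are not shown. Cdh9 overlapped in range, at 100.2 to 164 CPM in members and 65.7 to 100.4 in other excitatory nuclei. Rprm in Control 1 was at 0.818 CPM in members and 1.09 in Deptor nuclei.

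Markers of intratelencephalic and extratelencephalic cells were lower, whereas those of near-projecting and layer 6b cells were mixed. All 12 intratelencephalic markers were lower in members in every library, Deptor among them by the rule. Cux2, an upper-layer homeobox gene, averaged 16 CPM ± 1.72 in members and 179 ± 16.3 in other excitatory nuclei (SD, n = 4 libraries), and Rorb, a nuclear receptor of layer 4, averaged 37.2 ± 12.4 and 266 ± 29.2. Of 7 extratelencephalic markers, 6 were lower in every library and Chrna6 had no UMI in members. Of 8 near-projecting markers 5 were lower and 2 higher in every library, and of 8 layer 6b markers 2 were lower and 1 higher. Among the near-projecting markers Col12a1, a collagen of the fibril-associated kind, went the other way with 43.5 CPM ± 16.3 in members and 10.8 ± 2.35 in other excitatory nuclei.

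Markers of cells outside the cortical excitatory class were as follows. Summed levels of 9 oligodendrocyte markers ran from 100 CPM in Control 1 to 224 in Control 2 and from 120 to 174 in CrT-KO, against 197 to 267 in other excitatory nuclei. All 9 were detected. Of 7 astrocyte markers Gfap was at 0, and the sum, 721 to 851 CPM, came mostly from Slc1a2, a glutamate transporter, which averaged 687 CPM ± 58.2. The sum was 534 to 576 CPM in other excitatory nuclei. Of these markers 5 were lower in members in every library and 1 was higher. Of 7 microglial markers all were detected, with a sum of 40.9 to 54.4 CPM. The 9 interneuron markers had none of Gad1 and Gad2 by the rule and summed to 226 to 244 CPM. The 5 markers of oligodendrocyte precursors were all detected and summed to 741 to 902 CPM, against 879 to 1076 in other excitatory nuclei. Most of the sum in members was Tnr, with 1927 to 2323 UMIs a library, whereas Ptprz1 had 19 to 30. Of 6 vascular markers Cldn5 was at 0 and the sum was 4.01 to 5.59 CPM. The 6 markers of subcortical glutamatergic cells, with Dsp at 0, summed to 6.604 to 17.6 CPM. In 8 striatal projection markers the sum of 1581 to 1984 CPM was mostly Pde10a, which averaged 1783 CPM ± 182 in members and 1735 ± 216 in other excitatory nuclei.

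Genes of excitability and wiring set the members off in both directions. Values in this paragraph and the next are means of library CPM with SD over 4 libraries, members first, for genes chosen after their values were seen as the extremes of their list. Of 18 ionotropic glutamate receptor genes, 7 were higher in members in every library and 6 lower, with a median log2 ratio of 0.00 against 0.01 over all tested genes. The kainate receptor subunits split, with Grik3 at 506 ± 39.1 against 158 ± 7.35 CPM and Grik4 at 335 ± 20.2 against 155 ± 6.95, while Grik1 was at 42.4 ± 18.9 against 154 ± 6.68. Among 7 metabotropic receptors, Grm8 was at 1269 ± 76.4 against 682 ± 12.5 and Grm7 at 1626 ± 110 against 3412 ± 92.8. Potassium channel genes leaned low, with 25 of 50 lower and 15 higher in every library. Kcnb2, a delayed rectifier of the Kv2 family, was at 300.3 ± 51.1 against 1402 ± 23.0 CPM. Of 27 sodium, calcium and HCN channel genes, 13 were lower and 7 higher, and Cacna2d3, an auxiliary calcium channel subunit, was at 234 ± 54.8 against 1386 ± 134.

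Axon guidance genes were lower in 24 of 50 and higher in 17 of 50, with a median log2 ratio of -0.34. The netrin receptor Unc5d was at 139 ± 32.1 against 1391 ± 57.2 CPM and the ephrin receptor Epha6 at 188 ± 39.5 against 1336 ± 131. In contrast Nrp1, a semaphorin co-receptor, was at 402 ± 54.4 against 102 ± 7.79 and Ephb1 at 501 ± 28.9 against 130 ± 8.55. Of 45 synaptic adhesion and scaffold genes 31 were lower and 11 higher. The netrin-G genes were among the lowest, with Ntng1 at 43.2 ± 7.86 against 356 ± 42.6 CPM, whereas the leucine-rich repeat protein Lrrtm3 was at 1194 ± 156 against 566 ± 11.5. Of 15 cadherins 10 were lower and 5 higher. Vesicle release genes differed less, with 23 of 55 higher and 19 lower and a median log2 ratio of 0.07.

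Nuclear genes of the respiratory chain were higher in members in 10 of 75 and lower in 2, and glycolysis genes higher in 3 of 27 and lower in 5. These shares were below those over all tested genes, 23.6% and 21.9%, and 52 and 22 of the genes had enough counts in members to be tested. Summed respiratory chain levels were 1004 and 1014 CPM in controls and 1005 and 1007 CPM in CrT-KO, above the 909 to 976 CPM of other excitatory nuclei. Summed glycolysis levels, at 949 to 1001 CPM in members, also lay above those of other excitatory nuclei, at 868 to 934 CPM.

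Control and CrT-KO were then compared within the members, on UMI sums of each library, with edgeR's quasi-likelihood test. At a Benjamini-Hochberg adjusted p under 0.1, 3 of 9435 genes were called (0.0318%), all lower in CrT-KO, and none was higher. At an unadjusted p under 0.05 there were 545 genes (5.78%), 276 of them higher. The 2 genotypes did not overlap in CPM for 3321 genes (35.2%), and the median log2 fold change over all genes was 0.00. The p-values rest on 2 animals a group. Below, log2 fold changes of CrT-KO against control are given with ± SE, and levels with ± SD.

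The call with the lowest p was a record of Arhgap26, a GTPase-activating protein (ENSMUSG00000118193, GRCm38 chromosome 18, 38676718 to 39110534, plus strand). It had 582 and 693 UMIs in controls against 250 and 180 in CrT-KO. Scaled by TMM, the mean of 2 libraries was 245 CPM ± 9.07 and 79.1 ± 1.02, or -1.63 ± 0.11 on the log2 scale (edgeR adjusted p = 8.1e-07). Both CrT-KO libraries lay below both controls. The gene has a second record on the same strand, whose values are not given here, so this result covers only the record named.

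Fgf1 encodes a fibroblast growth factor that acts on receptor tyrosine kinases (ENSMUSG00000036585, chromosome 18, 38838673 to 38929472, minus strand). It had 148 and 193 UMIs in controls against 59 and 39 in CrT-KO. The level went from 65.3 CPM ± 6.61 to 17.9 ± 1.31, or -1.86 ± 0.18 on the log2 scale (edgeR adjusted p = 5.13e-05). The genotypes did not overlap. Fgf1 lies within the Arhgap26 record on the other strand and a second Arhgap26 record overlaps the first on the same strand. Since strand-specific counting is not given in the sources used here, the counts of the 2 genes are uncertain and may not be separate observations.

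Ldb2, a LIM-domain binding cofactor of transcription (ENSMUSG00000039706, chromosome 5, 44472132 to 44799680, minus strand), had 1515 and 1471 UMIs in controls against 1218 and 858 in CrT-KO. Its level went from 577 CPM ± 61.7 to 381 ± 10.8, or -0.60 ± 0.10 on the log2 scale (edgeR adjusted p = 0.0462). It was not called without Control 1 (edgeR adjusted p = 0.981), without Control 2 (0.228) or with looser thresholds for Foxp2 and Hs3st4 (0.267).

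The number of calls depended on the nuclei and libraries in the fit. With doublets left out 8 genes were called, the 3 above among them, and without CrT-KO 1 or CrT-KO 2 the counts were 75 and 54. These alternatives also contained all 3 genes. The direction of the calls differed too. Of the 8 calls without doublets 1 was higher in CrT-KO, and of 6 calls in nuclei of 4000 to 20000 UMIs 3 were higher. Of the 75 and 54 calls 40 and 25 were higher.

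Among genes that were not called, the lowest p-values with a positive sign belonged to Skap1, Tafa2, Galnt14, 2210408I21Rik and Abi3bp. Skap1, an adaptor of immune cell signalling, had 49 and 74 UMIs in controls against 216 and 88 in CrT-KO (1.21 ± 0.24 on the log2 scale, edgeR adjusted p = 0.185). Tafa2, a secreted chemokine-like protein, had 236 and 326 against 486 and 408 (0.63 ± 0.13 on the log2 scale, edgeR adjusted p = 0.193). Galnt14, which starts O-glycosylation, had 71 and 97 against 157 and 152 (0.84 ± 0.18 on the log2 scale, edgeR adjusted p = 0.251). In each of these 3 the CPM of the genotypes did not overlap, with CrT-KO above. All 5 passed the threshold in some alternatives, among them the fit with no filter on low counts. Tafa2 also passed in nuclei of 4000 to 20000 UMIs (edgeR adjusted p = 0.0559) and in nuclei with few glial UMIs (0.0682), and Skap1 without CrT-KO 2 (6.7e-07).

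With a negative sign the lowest p-values belonged to Cpa6, Col12a1, Cntn4, Robo1 and Kcnc2. Cpa6, a secreted carboxypeptidase, had 223 and 216 UMIs in controls against 164 and 104 in CrT-KO (-0.78 ± 0.15 on the log2 scale, edgeR adjusted p = 0.129). Col12a1 had 155 and 138 against 102 and 66 (-0.87 ± 0.18 on the log2 scale, edgeR adjusted p = 0.185). Robo1, a receptor for Slit guidance cues, had 2016 and 2124 against 1682 and 1462 (-0.44 ± 0.10 on the log2 scale, edgeR adjusted p = 0.251). Kcnc2, a fast delayed rectifier potassium channel, had 270 and 355 against 257 and 184 (-0.56 ± 0.13 on the log2 scale, edgeR adjusted p = 0.295). All 5 were lower in CPM in both CrT-KO libraries than in both controls. With doublets left out Cpa6, Col12a1, Cntn4 and Galnt14 passed the threshold, and with no filter on low counts all 5 did.

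**Figure D3:**
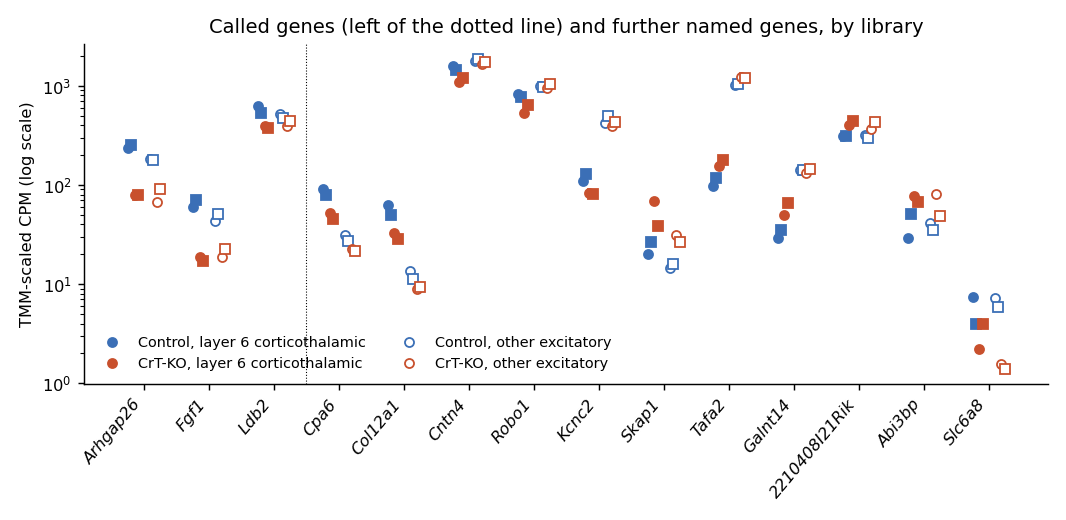
Level per library (TMM-scaled CPM, log scale) of the 3 called genes, left of the dotted line, and of 11 further named genes, in layer 6 corticothalamic nuclei (filled) and other excitatory nuclei (open); blue is Control and orange CrT-KO, circles are replicate 1 and squares replicate 2. For the called genes both CrT-KO points lie below both Control points in the members.

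Slc6a8 itself was sparse in these nuclei. It had 18 and 11 UMIs in controls against 7 and 9 in CrT-KO, which was 7.37 and 3.99 against 2.24 and 3.92 CPM (-0.91 ± 0.50 on the log2 scale, edgeR adjusted p = 0.897). The other excitatory nuclei, with more counts, gave -2.14 ± 0.21 (edgeR adjusted p = 0.00426). The effect in members minus that in the other excitatory nuclei was 1.21 ± 0.54 (edgeR adjusted p = 0.976). The deleted exons span chromosome X, 73678636 to 73679188, and hold 364 bases of a transcript of 13 exons. The kit tags RNA mostly near its 3′ end, and the count tables do not tell where in the gene a UMI fell, so these values do not check the deletion.

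The other creatine genes had few UMIs, and none was called. Ckb had 99 and 73 UMIs in controls against 104 and 52 in CrT-KO (-0.23 ± 0.23). Ckmt1 had 30 and 50 against 52 and 31 (-0.01 ± 0.27), and Ckmt2 had 10 and 7 against 16 and 9 (0.48 ± 0.49). Gatm, which makes the creatine precursor guanidinoacetate, had 6 and 15 against 7 and 14 (-0.03 ± 0.55). The genotypes overlapped in CPM for these 4 genes. Gamt, the second enzyme of synthesis, had 0 and 1 UMI in controls against 2 and 1 in CrT-KO, and Ckm had 1 UMI in all, so both were too low to test.

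The markers of the class did not pass the threshold in either direction. Of 17 corticothalamic markers outside the rule that could be tested, 8 had a positive and 9 a negative sign, with a median log2 fold change of -0.01 and values from -0.41 (Ptprt) to 0.51 (Fezf2). Tle4 had 1339 and 1339 UMIs in controls against 1225 and 1064 in CrT-KO (-0.28 ± 0.10 on the log2 scale, edgeR adjusted p = 0.755). The log2 fold change of Thsd7b was 0.05 ± 0.09 (edgeR adjusted p = 0.972) and that of Nfia, a nuclear factor I gene, 0.13 ± 0.09 (edgeR adjusted p = 0.919). Of 8 testable genes that divide corticothalamic cells into subtypes, 6 had a negative sign, with a median of -0.19 and Cpa6 the lowest. At 5000 UMIs a nucleus, Cpa6 was detected in 17.3% and 17.6% of control members and in 14.1% and 11.8% of CrT-KO members, against 5.3% to 7.7% of other excitatory nuclei. That difference of -4.51 percentage points had the smallest possible p of the exact permutation test, 0.33 (Benjamini-Hochberg adjusted 0.825 over the 10 subtype genes). Unthinned, the shares were 23.4%, 23.8%, 17.6% and 14.2%.

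No list of receptors, channels or synaptic genes held a called gene. The 16 ionotropic glutamate receptor genes tested had 8 positive and 8 negative values and a median log2 fold change of 0.02, and the 11 GABA-A receptor genes had 5 and 6 and a median of -0.06. Gabrg3, a gamma subunit, had 3788 and 4172 UMIs in controls against 4030 and 2671 in CrT-KO (-0.32 ± 0.08 on the log2 scale, edgeR adjusted p = 0.479). The 42 potassium channel genes had 21 positive and 21 negative values with a median of 0.00, and the 24 sodium, calcium and HCN channel genes 16 and 8 with a median of 0.05. For 53 vesicle release genes the median was 0.04, for 42 adhesion and scaffold genes 0.03, for 43 axon guidance genes 0.00 and for 15 cadherins -0.11. These medians lay near the 0.00 of all tested genes.

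Energy genes were likewise without a call. The median log2 fold change was 0.05 for 22 glycolysis genes (13 positive), -0.02 for 52 nuclear genes of the respiratory chain (24 positive), -0.07 for 18 ATP pump and AMP kinase genes (8 positive) and -0.03 for 9 genes encoded in mitochondria (4 positive).

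Chaperones and immediate-early genes had the lowest medians among the lists of cell functions, and none of their members was called. Of 21 chaperone genes tested 16 had a negative sign, with a median of -0.21. In the other excitatory nuclei the chaperone median was lower still, at -0.34, over a larger set of 25 genes tested. Hspa5, the main chaperone of the endoplasmic reticulum, had 45 and 40 UMIs in controls against 24 and 22 in CrT-KO (-0.94 ± 0.29 on the log2 scale, edgeR adjusted p = 0.590). It was called in the other excitatory nuclei (-0.87 ± 0.13 on the log2 scale, edgeR adjusted p = 0.0606). Calr, a chaperone of the same compartment, had 27 and 32 against 19 and 12 in the members (-0.99 ± 0.34 on the log2 scale, edgeR adjusted p = 0.682). The summed level of the 28 chaperone genes was 570 to 634 CPM in controls and 511 to 522 in CrT-KO, without overlap. Such separation was common, as it held for 35.2% of single genes. Sums of GABA-A receptor genes (5216 to 5452 against 4764 to 5035 CPM) were also apart. So were those of axon guidance genes (9342 to 9586 against 8952.5 to 9023) and, with CrT-KO higher, of cadherins (7274 to 7494 against 7696 to 7757). Adhesion and scaffold genes (62644.5 to 64275 against 64906 to 65140) and corticothalamic subtype genes (6258 to 6426 against 6593 to 6874) were apart too, with CrT-KO higher. The same held for interneuron and vascular markers, and with CrT-KO lower for microglial markers and Y chromosome genes. Of 14 immediate-early genes tested 11 had a negative sign, with a median of -0.47. In the other excitatory nuclei the median was -0.13, over a larger set of 22 genes tested. Arc had 46 and 72 UMIs against 50 and 24 (-0.74 ± 0.27 on the log2 scale, edgeR adjusted p = 0.721). Their summed level, 1041 to 1323 CPM in controls and 747 to 1210 in CrT-KO, overlapped between genotypes.

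**Figure D4:**
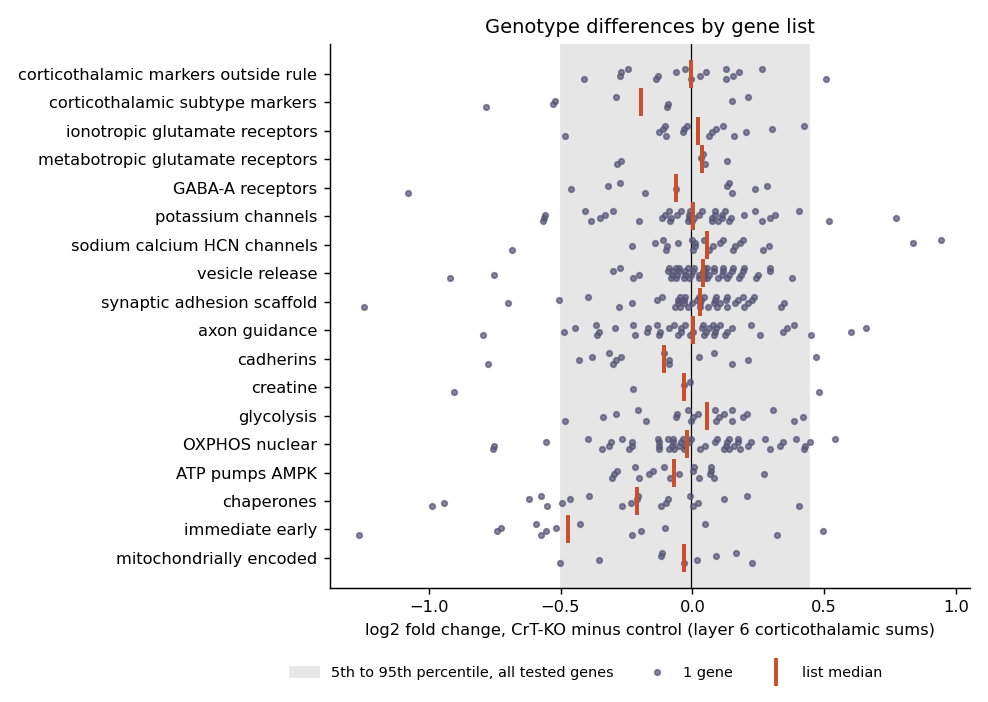
Log2 fold change (CrT-KO minus control, x axis) of each tested gene in 18 gene lists (rows), 1 grey point per gene, with the list median as an orange bar and the 5th to 95th percentile of all 9435 tested genes shaded. No gene in these lists was called. The medians lie between -0.47 for immediate-early genes and 0.05 for sodium, calcium and HCN channels and for glycolysis.

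Of lists for other cell types, none held a called gene. Of the oligodendrocyte genes St18, Prr5l, Mobp and Mog were highest in Control 2, and Mbp, Mal, Mag and Cnp were highest in a CrT-KO library. Prr5l was at 95 UMIs in Control 2 against 8 in Control 1 and 24 and 11 in CrT-KO, and St18 at 122 against 28, 59 and 69. Prr5l was not called in the test as set (edgeR adjusted p = 0.791), but was called as lower in CrT-KO without Control 1 (0.0343), without CrT-KO 1 (0.00146) and with no filter on low counts (0.000392). Control 2 was also the library with the most doublets among its members. The part of these transcripts in the calls was not tested, but among members with at most 2 UMIs of glial markers 6 genes were called, with Arhgap26, Fgf1 and Ldb2 among them.

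The same comparison in the other excitatory nuclei, from the same animals, called 14 of 13470 genes (0.104%), 4 higher (0.0297%) and 10 lower (0.0742%) in CrT-KO. DESeq2 called 52 there, 32 of them higher, and without Control 1, Control 2, CrT-KO 1 or CrT-KO 2 edgeR called 36, 12, 109 and 195. Fgf1 gave -1.19 ± 0.11 there (edgeR adjusted p = 0.00426) and the Arhgap26 record -1.20 ± 0.12 (edgeR adjusted p = 0.00426). Ldb2 was not called, with -0.26 ± 0.08 (edgeR adjusted p = 0.416). Of the 14 genes, 13 could be tested in the members and 2 were called, and all 13 had the same sign. The libraries are shared, so this is no independent evidence. Abca4, a lipid transporter, rose by 0.87 ± 0.14 in the other excitatory nuclei (edgeR adjusted p = 0.0954), and in the members had 14 and 12 UMIs in controls against 40 and 35 in CrT-KO (1.46 ± 0.34 on the log2 scale, edgeR adjusted p = 0.295). Potegl, which an earlier analysis of all excitatory nuclei had called as higher, had 13 and 14 UMIs against 13 and 11 in the members (-0.23 ± 0.43 on the log2 scale, edgeR adjusted p = 0.972), and Tnnc1 with 5 and 6 against 3 and 1 was too low to test. In the other excitatory nuclei neither Potegl (0.80 ± 0.17, edgeR adjusted p = 0.246) nor Tnnc1 (-1.01 ± 0.22, edgeR adjusted p = 0.252) was called here.

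Whether the genotype effect differed between members and other excitatory nuclei was tested in 1 model with the library as a block. No gene of 12910 was called (0.0%) by edgeR at an adjusted p under 0.1, with 599 at an unadjusted p under 0.05, and DESeq2 called none, with 80 at that level. The difference of log2 fold changes, members minus others, was -0.66 ± 0.18 for Fgf1 (edgeR adjusted p = 0.882), -0.41 ± 0.13 for the Arhgap26 record (edgeR adjusted p = 0.903) and -0.34 ± 0.10 for Ldb2 (edgeR adjusted p = 0.883). The lowest p-values were those of Galnt14, Robo1, Cntnap5b and Chst9, each with an edgeR adjusted p of 0.175. Galnt14 differed by 0.86 ± 0.15, from 0.84 in members and -0.03 in others, and Robo1 by -0.48 ± 0.09, from -0.44 and 0.02. With doublets left out 11 genes were called in this test. For Slc6a8 and the markers alike, a difference that missed the threshold does not show equal effects.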

How the data were processed

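Single-nucleus RNA of 4 libraries, 2 Control and 2 CrT-KO, was measured with a 10x 3′ kit. The deposited values are UMI counts per gene and nucleus. To make these counts the authors ran Cell Ranger 3.1.0 on a custom pre-mRNA reference of GRCm38, so intronic reads count, after nuclei had been sorted by flow cytometry. Whether counting used strand is not given in the sources used here.

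Members were found by the rule on raw counts, and their UMIs were summed per library. The members and the gene lists were chosen with earlier results of these data known. Library totals were 51507483 to 65240843 UMIs. Genes were kept by edgeR's filterByExpr (minimum count 10, minimum total 15), scaled by TMM and tested with edgeR 4.0.16 (glmQLFit and glmQLFTest, R 4.3.3), called at a Benjamini-Hochberg adjusted p under 0.1. The test of the difference between populations used a genotype by population term with the library as a block. The scripts were tested on simulated counts. Levels are plain CPM, and log2 ratios of levels add 1 CPM. Shares were compared by the exact permutation test over 6 assignments, also after thinning to 5000 UMIs (seed 11). Doublets were marked with Scrublet in scanpy 1.11.5, kept in the main fit and left out in an alternative.

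Named genes were the creatine genes, the genes of the rule, corticothalamic markers outside it, called genes, the 5 not called with the lowest p in each direction, the 12 leading genes by ratio, the 4 most abundant members of each of 33 lists, and 5 genes that an earlier analysis of all excitatory nuclei had called. Those named as extremes of a list, for a low p within a list or in the test of the difference, were chosen after their values were seen. Gene positions are those of GENCODE on GRCm38, which matched 99.5% of 21933 genes in the files. Alternatives were DESeq2 1.42.0, other scaling, no filter, a replicate block, looser and stricter thresholds, a window of UMIs, few glial UMIs and leaving out each library.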

Additional observations from a re-analysis of the deposited data

How the results depend on the processing

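Genotype calls in the members numbered 3 with edgeR, with DESeq2, with RLE scaling, with stricter thresholds (5 Foxp2 and 8 Hs3st4 UMIs) and at an adjusted p under 0.05, and 2 with looser ones (2 and 3 UMIs). They numbered 56 with no filter on low counts, 8 without doublets, 6 with nuclei of 4000 to 20000 UMIs, 6 with nuclei of at most 2 glial UMIs and 2 to 75 when 1 library was left out (3 without Control 1, 2 without Control 2, 75 without CrT-KO 1, 54 without CrT-KO 2). Where a library is left out, the lone one of its group is assumed to vary like the other group. The replicate block gave 109 calls, 57 higher and 52 lower in CrT-KO, and the fit with no filter 36 higher and 20 lower. In the other excitatory nuclei the block gave 637 calls against 14. The labels do not say whether libraries of the same replicate number share a batch, and this was not tested. The correlation of same-numbered deviations was 0.228. With 2 libraries a group both pairs must give the same value, so it is 1 value and cannot decide. Calls for the difference from other excitatory nuclei were 0, and 0 with DESeq2 or RLE scaling, but 22 with no filter, 11 without doublets, 2 with looser and 2 with stricter thresholds, 2 in the UMI window, 1 with few glial UMIs and 9 to 31 without 1 library. The causes were not tested. That fit has a block for the library, so no block for the replicate number was added.

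Fgf1 (log2 fold change -1.95 to -1.74) and the Arhgap26 record (-1.66 to -1.57) were called in all 13 alternatives. Ldb2 (-0.70 to -0.48) was called in 10. No called gene changed sign in these. The share of members differed by -0.11 to 1.03 percentage points when 1 library was left out. With 2 animals a group and few UMIs, as for Slc6a8 with 7 to 18 a library, small differences were not detectable at this depth.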
